A study of Mus musculus with 6 samples.

Results

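Messenger RNA of 35 genes for sugar breakdown, glucose and lactate transport, pyruvate entry into mitochondria and the response to low oxygen was measured in the anterior dorsal pericardial wall and outflow tract of mouse embryos. The genes were picked by symbol from a table of 25888 genes, and muscle and neural isoforms were kept apart from the widely expressed ones. They comprise 14 widely expressed glycolytic enzymes, 4 muscle isoforms, 2 neural isoforms, 4 further transporters, 6 genes of pyruvate entry and 5 genes of the hypoxia response. The values are FPKM, fragments scaled by transcript length and by library size, from bulk RNA-seq of 3 control and 3 mutant libraries. All libraries came from C57BL/6 embryos at E9.5, and the 2 dissected tissues were pooled within each library. The mutants carried Hand2flox/flox with Mef2c-AHF-Cre, a recombinase transgene driven by an anterior heart field enhancer of Mef2c, so cells outside that lineage keep Hand2. The labels used here give neither the alleles of the control embryos, nor the number of embryos in a pool, nor the litters behind each library. The p-values therefore measure only the spread between these libraries, which may be technical.

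Glycolysis splits glucose into pyruvate in the cytosol and yields a little ATP without oxygen, and lactate dehydrogenase then turns pyruvate into lactate. Early embryos and the embryonic heart rely heavily on this route before oxidation in mitochondria takes over as the main source of ATP. Several steps have isoforms encoded by separate genes, some of which are typical of striated muscle or of neurons. When oxygen is scarce, the transcription factor HIF-1 accumulates and raises transcription of many glycolytic genes.

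Hand2, the targeted transcription factor gene, was read at 116, 64.3 and 81.6 FPKM in controls 1 to 3 and at 34.6, 22.2 and 17.9 FPKM in mutants 1 to 3. Every mutant library was below every control library (exact permutation test, two-sided p = 0.1, the smallest that 3 against 3 allows). The limma adjusted p was 0.109, or 0.00279 once replicate number was added as a block. Reads recovered from the FPKM values ranged from 27005152 to 34814832 per library. In every library they exceeded the denominator inferred from the same values. In control 1 they were 29133808 against 23269534, and in mutant 3 they were 30346969 against 27340116. Recovered reads are thus an estimate and not a direct measure of depth, and the reason for the gap was not tested. Over all genes 22 of 12650 passed the adjusted threshold of 0.05 (0.174%), and 648 passed with the block (5.12%). None of 16 heart muscle markers was at 0 in any library. This also held for 13 red cell, 10 endothelial and 8 pharyngeal endoderm markers, so detection alone does not identify the tissue. The 12 outflow tract and second heart field genes summed to a mean of 576 FPKM in controls and 578 in mutants. Single genes of that list ran from -0.61 to 0.83 on the log2 scale. With the block 3 of them were called higher and 2 lower, against 1.42% and 3.70% of all genes. The red cell markers summed to 8033, 3377 and 5429 FPKM in controls and to 5132, 3521 and 3827 FPKM in mutants. Heart muscle markers summed to 9217, 5675 and 7457 FPKM in controls 1 to 3 and to 5822, 3733 and 4717 FPKM in mutants 1 to 3, so the mutant mean was 63.9% of the control mean. Control 3 stood apart in 11 yolk sac and liver endoderm markers, which summed to 677 FPKM there and to 3.57 to 8.34 FPKM in the other libraries. Both libraries numbered 1 had the largest share of ribosomal protein genes in the FPKM sum, 14.6% and 14.4%, against 10.6% to 11.8% in the rest.

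Promoters of 3 genes are shown, because Pgam2 gave the largest difference of the set, Pgam1 is its widely expressed counterpart, and Ldha is a textbook HIF-1 target. The windows are RefSeq sequence of GRCm38.p6 from 250 bases before to 50 bases after a transcription start, written 5′ to 3′ on the strand of the gene. By the GENCODE M21 annotation, the Pgam2 and Pgam1 windows lie wholly upstream of the gene starts, at 5803733 and 41911923. For Pgam2 (chr11:5803747-5804046, minus strand) and Pgam1 (chr19:41911621-41911920, plus strand), capitals mark CANNTG, the E-box core bound by basic helix-loop-helix factors such as Hand2 and the myogenic factors, and TAAAAATA, one form of the MEF2 core. For Ldha (chr7:46845554-46845853, plus strand), capitals mark ACGTG, the HIF core. Both strands were searched, and CACGTG holds CANNTG once and ACGTG once on each strand.
Pgam2: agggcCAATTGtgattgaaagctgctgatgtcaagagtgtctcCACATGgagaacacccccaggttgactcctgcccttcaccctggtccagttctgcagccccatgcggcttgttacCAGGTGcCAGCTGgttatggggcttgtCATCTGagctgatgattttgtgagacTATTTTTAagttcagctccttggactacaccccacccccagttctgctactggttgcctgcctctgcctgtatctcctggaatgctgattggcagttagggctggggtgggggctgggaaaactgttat
Pgam1: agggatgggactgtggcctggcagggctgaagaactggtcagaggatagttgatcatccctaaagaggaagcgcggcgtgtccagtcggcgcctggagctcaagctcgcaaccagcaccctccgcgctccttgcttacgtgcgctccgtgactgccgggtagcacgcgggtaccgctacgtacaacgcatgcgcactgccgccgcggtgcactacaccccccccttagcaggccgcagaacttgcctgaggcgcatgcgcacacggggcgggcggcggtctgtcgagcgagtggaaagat
Ldha: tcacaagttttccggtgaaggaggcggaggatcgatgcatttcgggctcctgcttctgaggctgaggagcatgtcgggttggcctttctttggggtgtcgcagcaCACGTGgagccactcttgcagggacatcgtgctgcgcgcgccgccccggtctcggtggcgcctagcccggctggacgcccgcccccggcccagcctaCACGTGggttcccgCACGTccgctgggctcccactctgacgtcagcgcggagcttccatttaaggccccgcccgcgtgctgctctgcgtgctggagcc
The Pgam2 window held CANNTG 5 times and TAAAAATA once, on the reverse strand. Among all 32851 promoters of the table, 2.10% held CANNTG 5 times or more and 2.72% held TAAAAATA. The Pgam1 window held neither motif, and held ACGTG once. Ldha held ACGTG 5 times in 3 stretches. RefSeq promoters were matched for 33 of the 35 genes, with Slc2a3 and Slc2a4 missing. ACGTG was present in 23 of their 46 promoter windows (50.0%), against 19.6% of all promoters, and CANNTG in 32 of 46 (69.6%), against 72.3%. These matches describe letters and are not evidence of binding.

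Across the whole set, the median level differed little between the genotypes. The median log2 fold change (mutant over control, on log2(FPKM + 1)) was -0.04 over the 35 genes and -0.01 over all genes tested. Of the 35 genes, 13 had a positive and 22 a negative value. None passed the threshold in limma without the block, against 0.0237% of all genes called higher and 0.150% called lower. At an unadjusted p under 0.05 in that fit there was 1 member lower and none higher, against 4.32% and 2.60% of all genes. With the block the unadjusted p was under 0.05 for Hk1, Pfkp, Pgam2, Eno3, Slc16a1, Pdk3, Pdha1, Pdhb and Hif1a, all lower. It was also under 0.05 for Pfkl and Slc2a4, both higher. Over all 12650 genes the block gave 1716 lower and 1183 higher at that level. At the adjusted threshold with the replicate block, 2 passed as lower, Pgam2 and Pdhb, and none as higher. That share of 5.71% is close to the 5.12% of all genes called in that fit. The number of calls at the adjusted threshold thus does not set the group apart. The unadjusted counts with the block were not compared as shares. Equal sums with the block called 1 member higher and 1 lower, against 2.94% and 2.99% of all genes, and quantile normalization with the block called 2 and 1, against 2.01% and 3.15%. Voom on recovered reads with the block called 1 and 3, against 4.71% and 4.79%, and array weights called none and 1, against 1.53% and 2.76%. In all 3 same-numbered pairs the mutant was lower for 13 genes and higher for 6, and over all genes the shares were 25.1% and 20.5%. Together the 35 genes made up 1.99% to 2.16% of the FPKM sum of each library.

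**Figure D1:**
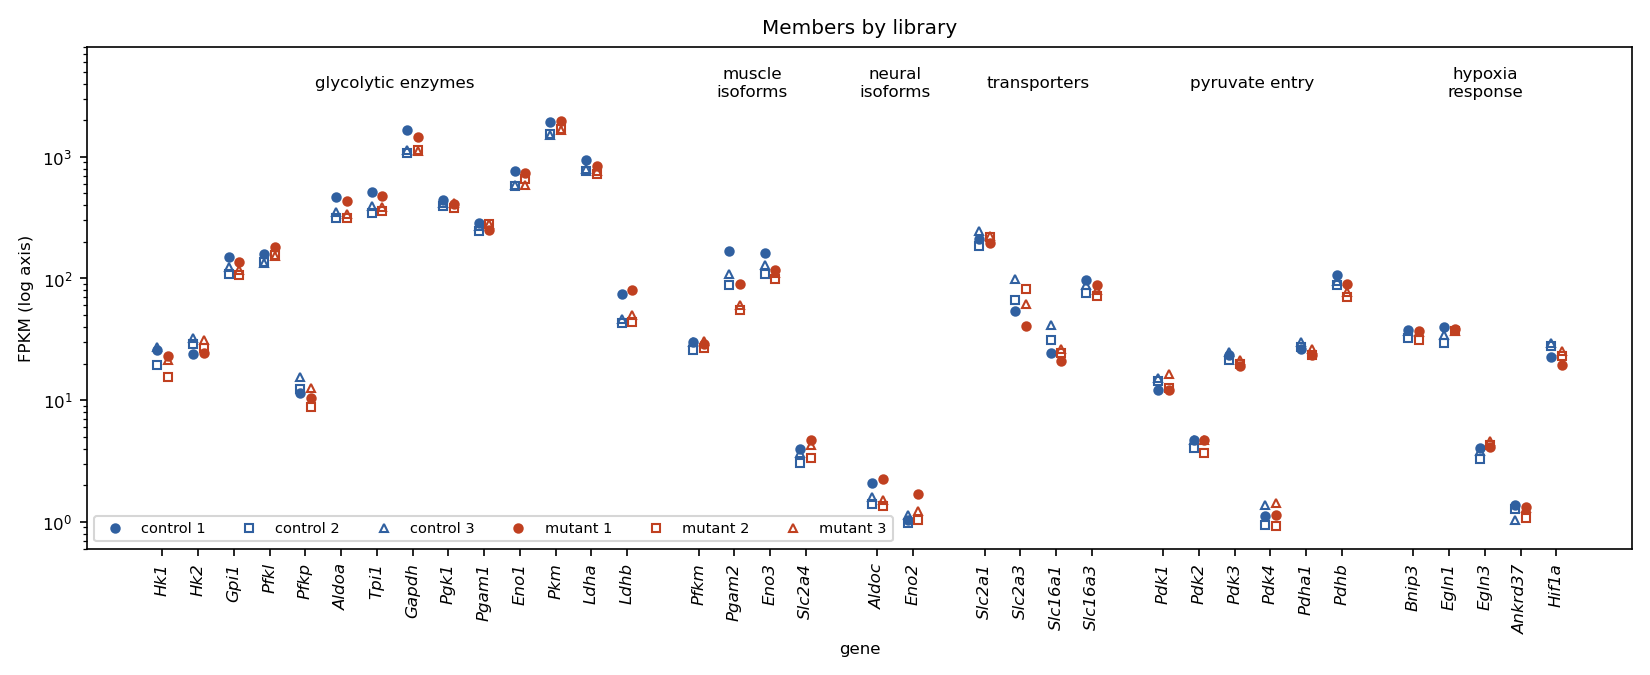
Level of each of the 35 genes in each of the 6 libraries (FPKM, log scale), with genes grouped by role and controls and mutants in separate colours. The mutant points of Pgam2, at 55.0 to 90.9 FPKM, lie mostly below the control points, at 88.6 to 167 FPKM, and of all 35 genes Egln3 alone has groups that do not overlap.

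Among the widely expressed glycolytic enzymes, none of the 14 passed the test in either fit or reached an unadjusted p of 0.05 in the unblocked one. Their log2 fold changes ran from -0.30 to 0.19 with a median of -0.04. That median was 0.04 after quantile normalization and 0.02 with equal sums, so its sign follows the scaling. Pkm, the pyruvate kinase of the final step, was the most abundant at 1926, 1547 and 1524 FPKM in controls 1 to 3 and 1958, 1695 and 1659 FPKM in mutants 1 to 3. Gapdh, which oxidises glyceraldehyde phosphate, followed at 1673, 1072 and 1145 FPKM in controls and 1454, 1149 and 1120 FPKM in mutants. The groups overlapped for both. For Gapdh the difference was -0.04 on the log2 scale, with a 95% interval of -0.26 to 0.17 with the block. Ldha, the lactate dehydrogenase subunit that favours lactate, stood at 835 ± 100 FPKM in controls and 778 ± 61.0 FPKM in mutants (SD, n = 3 each), a difference within the spread. Eno1, the widely expressed enolase, Tpi1, the triose phosphate isomerase, Aldoa, the main aldolase, and Pgk1, the first ATP-forming kinase, each lay between 315 and 769 FPKM in every library.

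The hexokinase and phosphofructokinase steps held the enzymes with the largest differences of this group. Pfkl, the liver-type phosphofructokinase, which catalyses the committed step, was read at 160, 136 and 134 FPKM in controls and 182, 155 and 154 FPKM in mutants. Each mutant was above the control of the same number, by 0.19, 0.19 and 0.20 on the log2 scale, while the groups overlapped. Its adjusted p was 0.93 in limma, 0.101 with the block, 0.0466 with quantile normalization and the block, and 0.0320 with equal sums and the block. Pfkp, the platelet type, had 11.5, 12.4 and 15.6 FPKM in controls and 10.5, 8.72 and 12.5 FPKM in mutants, lower in 3 of 3 pairs (log2 fold change -0.30, SE 0.16, limma adjusted p = 0.838, 0.0903 with the block). Hk1, the widely expressed hexokinase that traps glucose as its phosphate, had 25.8, 19.3 and 27.5 FPKM in controls and 22.9, 15.5 and 21.5 FPKM in mutants, also lower in 3 of 3 pairs (log2 fold change -0.27, SE 0.18, limma adjusted p = 0.921, 0.0575 with the block). Neither Pfkp nor Hk1 passed the test, and both kept their sign under all 20 alternatives run. Their size did not hold: Hk1 was -0.11 without mutant 2, -0.17 without control 3, -0.42 without control 2 and -0.53 with array weights. Pfkp was -0.18 without control 3 or without mutant 2, and -0.57 with array weights. Pfkl was 0.11 without mutant 1. Of the exonic length of Pfkp, 5.58% overlaps Pitrm1 on the opposite strand, which was read at a mean of 31.4 FPKM. The part of Pitrm1 reads in the Pfkp values was not tested. Hk2, the inducible hexokinase, was read at 24.1 to 32.4 FPKM in controls and 24.6 to 31.2 FPKM in mutants, and Gpi1, which isomerises glucose phosphate, at 109 to 150 and 107 to 138 FPKM.

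Several genes varied with the replicate number in both genotypes. Ldhb, the subunit that favours pyruvate, was read at 74.8, 43.2 and 46.5 FPKM in controls and 80.1, 44.0 and 50.0 FPKM in mutants. The library numbered 1 was high in both groups, by 0.73 and 0.76 on the log2 scale over the other two. Gapdh in library 1 exceeded the other two by 0.59 in controls and 0.36 in mutants. Slc2a3 ran the other way, at -0.58 and -0.78. Without the block the standard errors of the 14 enzymes were 0.13 to 0.28, and with it 0.05 to 0.09.

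Pgam2, the muscle subunit of phosphoglycerate mutase, gave the largest difference of the 35 genes. The gene (ENSMUSG00000020475) lies on GRCm38 at chr11:5801640-5803733 on the minus strand and has 3 exon blocks, none of which overlaps an exon of another gene. It was read at 167, 88.6 and 109 FPKM in controls 1 to 3 and at 90.9, 55.0 and 61.0 FPKM in mutants 1 to 3. The mutant mean of 69.0 ± 19.3 FPKM was 43.3% below the control mean of 122 ± 40.8 FPKM (SD, n = 3 each), and mutant 1 lay above control 2. The log2 fold change was -0.79 (SE 0.27, 95% interval -1.44 to -0.15), with an unadjusted p of 0.023 and an adjusted p of 0.572 in limma. With the replicate block the standard error was 0.06, the 95% interval -0.94 to -0.65 and the adjusted p 0.00402. The same-numbered pairs differed by -0.87, -0.68 and -0.83, all in the same direction. Leaving out any one pair kept the call with the block, with adjusted p of 0.00687, 0.018 and 0.0171.

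Pgam1, the widely expressed mutase, was read at 287, 246 and 271 FPKM in controls and 249, 283 and 283 FPKM in mutants. Its groups overlapped, and its log2 fold change was 0.02. As a result Pgam2 made up 36.8%, 26.5% and 28.7% of mutase FPKM in controls and 26.8%, 16.3% and 17.7% in mutants. The mean share was 30.6% ± 5.44 in controls against 20.3% ± 5.70 in mutants (SD, n = 3 each), lower in 3 of 3 pairs, with an exact two-sided permutation p of 0.2. Pgam1-ps2, a processed copy of Pgam1, was read at 24.2 to 28.6 FPKM, so reads of the 2 cannot be fully told apart, and adding it gave mean shares of 28.7% and 18.8%.

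**Figure D2:**
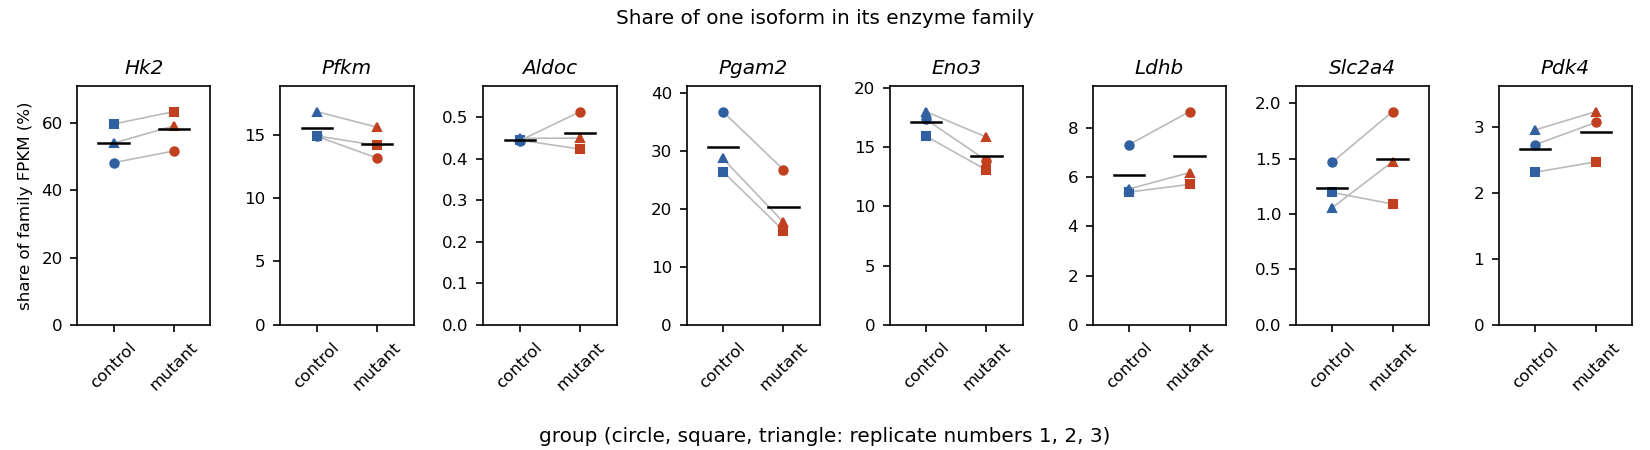
Share of 1 isoform per family (Hk2, Pfkm, Aldoc, Pgam2, Eno3, Ldhb, Slc2a4 and Pdk4) in the summed FPKM of that family (percent). Each library is 1 point, the group mean is a bar, and lines join libraries of the same replicate number. The Pgam2 share is lower in the mutant of each pair, and the Eno3 shares of the 3 mutants, 13.1% to 15.8%, lie below those of the 3 controls, 15.9% to 18.0%.

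Eno3, the muscle enolase, showed a smaller difference. It lies at chr11:70657202-70662513 on the plus strand and was read at 162, 109 and 130 FPKM in controls and 119, 99.1 and 111 FPKM in mutants. The groups overlapped, the log2 fold change was -0.27 (SE 0.17), and the limma adjusted p was 0.896, or 0.108 with the block. Without control 1 the value was -0.12, and without control 2 it was -0.40. Its share of enolase FPKM was 17.3%, 15.9% and 18.0% in controls and 13.9%, 13.1% and 15.8% in mutants. On that scale every mutant was below every control (17.1% ± 1.06 against 14.3% ± 1.43, SD, n = 3 each, exact permutation p = 0.1, the smallest possible). Eno1b, a near copy of Eno1, was read at 99.6 to 207 FPKM. With Eno1b in the family the Eno3 share was 14.4% in controls and 11.8% in mutants, with the same exact p.

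The other 2 muscle genes did not have lower mean FPKM in mutants. Pfkm, the muscle phosphofructokinase, was read at 29.9, 26.0 and 30.2 FPKM in controls and 29.2, 27.0 and 30.7 FPKM in mutants. Its log2 fold change was 0.01 (SE 0.10, 95% interval with the block -0.11 to 0.13, limma adjusted p = 1.00), and the sign turned in 4 alternatives. Its share of phosphofructokinase FPKM had a control mean of 15.5% ± 1.11 and a mutant mean of 14.3% ± 1.22 (SD, n = 3), lower in 3 of 3 pairs with overlapping groups (exact permutation p = 0.3). Slc2a4, the insulin-responsive glucose transporter of muscle and fat, was low at 3.94, 3.03 and 3.68 FPKM in controls and 4.67, 3.34 and 4.30 FPKM in mutants. It was higher in 3 of 3 pairs, with a difference of 0.16 on the log2 scale (SE 0.13, limma adjusted p = 0.976). That difference was 0.02 with array weights, 0.08 without control 2 or mutant 1 and 0.27 without mutant 2. All 16 heart muscle markers had a negative log2 fold change, as Pgam2 did, from -2.48 to -0.03 with a median of -0.67. Of them 1 was called lower without the block and 11 with it, against 0.150% and 3.70% of all genes. Myh6 was nearly level, with means of 228 and 214 FPKM in controls and mutants. All 10 endothelial markers were negative too, with a median of -0.27, 5 called lower with the block and a mutant sum at 78.7% of the control sum. The part of any of these marker lists in the Pgam2 and Eno3 values was not tested. In bulk tissue fewer muscle cells and less RNA per cell cannot be told apart.

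**Figure D3:**
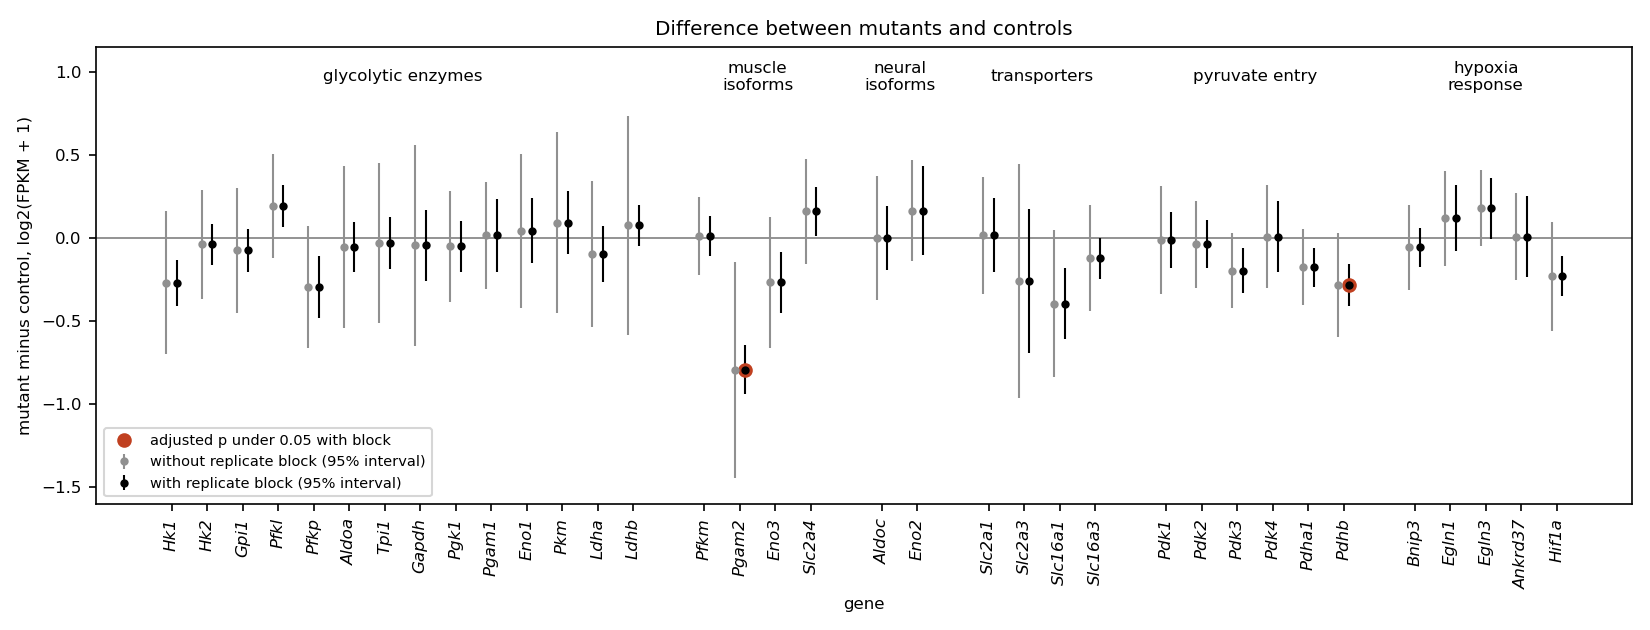
Log2 fold change of each gene, mutant over control on log2(FPKM + 1), with 95% intervals from limma without and with the replicate block. Without the block the interval of Pgam2, -1.44 to -0.15, lies wholly below 0, and with the block the intervals of Pgam2 and Pdhb, -0.41 to -0.15, belong to the genes that passed the adjusted threshold.

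Neural isoforms were barely present. Aldoc, the brain aldolase, was read at 1.34 to 2.24 FPKM over all 6 libraries. Eno2, the neuronal enolase, was read at 1.03, 0.985 and 1.13 FPKM in controls and 1.68, 1.03 and 1.22 FPKM in mutants. Neither passed the test in either fit, and the sign of the Aldoc value changed with the processing.

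Glucose enters cells through transporters of the Slc2a family, and lactate and pyruvate cross the membrane through the Slc16a family. Slc2a1, the basal glucose transporter, was read at 211, 184 and 245 FPKM in controls and 197, 221 and 226 FPKM in mutants, with overlapping groups and a log2 fold change of 0.02. It made up a mean of 73.8% of the summed FPKM of Slc2a1, Slc2a3 and Slc2a4 in controls and 77.0% in mutants. Slc2a3, a high-affinity glucose transporter, ranged widely, at 53.9, 66.3 and 99.6 FPKM in controls and 40.9, 81.2 and 61.8 FPKM in mutants. Its log2 fold change of -0.26 (SE 0.30) depended on single libraries: it was -0.02 without control 3, -0.00013 without mutant 1, -0.45 without control 1 and -0.49 without mutant 2.

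Slc16a1, a carrier for lactate uptake and release, was read at 24.6, 31.2 and 41.2 FPKM in controls and 21.0, 24.6 and 26.1 FPKM in mutants. The mutant was lower in 3 of 3 pairs, and mutant 2 was level with control 1. The log2 fold change was -0.40 (SE 0.19), the limma adjusted p was 0.79, or 0.0652 with the block, and the value without control 3 was -0.21. Slc16a3, the lactate exporter of glycolytic cells, was read at 87.1 ± 10.8 FPKM in controls and 79.8 ± 8.17 FPKM in mutants (SD, n = 3 each), lower in 3 of 3 pairs, and did not pass the test. Its log2 fold change of -0.12 ran from -0.22 to -0.04 as single libraries were left out.

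Pyruvate is turned into acetyl-CoA by the pyruvate dehydrogenase complex, whose first enzyme is built from the Pdha1 and Pdhb subunits and is switched off by the Pdk kinases. Pdhb, at chr14:8165996-8173025 on the minus strand, was read at 106, 88.8 and 94.7 FPKM in controls and 90.8, 70.9 and 76.8 FPKM in mutants. The means were 96.6 ± 8.98 and 79.5 ± 10.2 FPKM (SD, n = 3 each), 17.7% lower in mutants, and mutant 1 lay above control 2. The log2 fold change of -0.28 (SE 0.13) had a limma adjusted p of 0.79. With the replicate block the adjusted p was 0.0424 (SE 0.05, 95% interval -0.41 to -0.15), and the pairs differed by -0.23, -0.32 and -0.30. That call was lost with the block after quantile normalization (adjusted p = 0.103) or equal sums (0.0763), and also when any one pair was left out (0.0672, 0.103 and 0.230). Voom on recovered reads with the block kept it (adjusted p = 0.0318), and under these settings the log2 fold change stayed between -0.31 and -0.22.

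Pdha1 was read at 26.1, 27.4 and 30.2 FPKM in controls and 23.7, 23.6 and 26.4 FPKM in mutants, lower in 3 of 3 pairs and not called (block adjusted p = 0.104 in limma). Part of its exonic length, 16.1%, overlaps Map3k15, which was read at a mean of 0.576 FPKM. Pdk3 was the most abundant kinase at 23.3, 21.4 and 25.0 FPKM in controls and 19.1, 19.7 and 21.5 FPKM in mutants, lower in 3 of 3 pairs (log2 fold change -0.20, SE 0.10, limma adjusted p = 0.804). Pdk1, a HIF target, was read at 12.1 to 16.5 FPKM over the 6 libraries. Pdk2 lay between 3.69 and 4.70 FPKM, and Pdk4, the kinase induced by fasting, between 0.917 and 1.43 FPKM. None of the 4 kinases passed the test in either fit.

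Hypoxia-response genes lay on both sides of 0 with a median of 0.01, and none of the 5 passed the test. Egln3, a prolyl hydroxylase that marks HIF for degradation and is itself induced by HIF, was read at 4.04, 3.30 and 3.85 FPKM in controls and 4.12, 4.32 and 4.60 FPKM in mutants. It was the only one of the 35 genes whose groups did not overlap, against 5.44% of all genes with every mutant higher and 6.85% with every mutant lower. Its difference of 0.18 on the log2 scale (SE 0.10) had a limma adjusted p of 0.847, or 0.227 with the block, and was 0.11 without control 2. Hif1a, the oxygen-regulated subunit, whose protein level is set largely after translation, was read at 22.6, 28.1 and 29.3 FPKM in controls and 19.4, 23.0 and 25.4 FPKM in mutants, lower in 3 of 3 pairs (log2 fold change -0.23, SE 0.14, limma adjusted p = 0.884, 0.0582 with the block, -0.13 without mutant 1). Egln1, the main prolyl hydroxylase, was read at 29.6 to 40.0 and 37.0 to 38.1 FPKM in controls and mutants, and Bnip3, a mitophagy receptor induced by HIF, at 32.7 to 38.1 and 30.9 to 36.7 FPKM. Ankrd37, a HIF target, lay between 1.03 and 1.38 FPKM.

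Genes of neighbouring pathways were then examined. No gene of any further list passed limma without the block. Of 16 tested genes from 26 further genes of glycolysis and gluconeogenesis, Tigar, a sugar bisphosphatase that slows glycolysis, was lower with the block (control mean 6.66 ± 0.602 FPKM, mutant mean 5.11 ± 0.161 FPKM, SD, n = 3, limma adjusted p = 0.0384), a call lost under equal sums with the block. None of 5 tested transport genes, 7 pyruvate genes or 7 pentose phosphate genes passed in either fit. Those with the smallest unadjusted p were Bsg, the chaperone of lactate carriers, at 340 and 300 FPKM, and Txnip, which restrains glucose uptake, at 15.2 and 14.0 FPKM. For pyruvate they were Dlat and Dld, both subunits of the pyruvate dehydrogenase complex, at 21.8 and 18.5 FPKM and at 48.4 and 45.4 FPKM in controls and mutants. For the pentose phosphate list they were G6pdx, which starts that pathway, at 12.3 and 13.6 FPKM, and Rpe, an epimerase of it, at 8.29 and 7.74 FPKM.

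Of 23 tested further hypoxia genes, 2 were higher with the block and none lower, against 1.42% of all genes called higher in that fit. Adm, a vasodilator peptide gene, was read at 1.83, 1.69 and 2.07 FPKM in controls and 3.06, 3.33 and 3.98 FPKM in mutants (log2 fold change 0.64, limma adjusted p = 0.137, 0.0129 with the block). Ddit4, an inhibitor of mTORC1 signalling induced by hypoxia and other stresses, was read at 31.4, 22.4 and 18.6 FPKM in controls and 48.3, 35.2 and 36.5 FPKM in mutants (log2 fold change 0.72, SE 0.21, limma adjusted p = 0.429, 0.0111 with the block). For both, every mutant was above every control, which held for 3 of the 23 genes and for 5.44% of all genes. Both calls held with the block under quantile normalization and equal sums. Quantile normalization with the block also called Mif higher, so 3 of 23 passed there, against 2.01% of all genes. Vegfa, a well known HIF target named here after its values were seen, averaged 39.7 FPKM in controls and 40.5 FPKM in mutants.

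Glycogen genes had a median log2 fold change of -0.16 over 13 tested, and 5 were lower with the block, against 3.70% of all genes called lower. Pygb and Pygl, phosphorylases that release glucose phosphate from glycogen, averaged 37.4 and 27.4 FPKM and 10.8 and 8.11 FPKM in controls and mutants (block adjusted p = 0.0143 and 0.0196 in limma). Gyg, the primer of glycogen synthesis, at 188 and 130 FPKM, Ugp2, which makes the glucose donor, at 15.6 and 11.6 FPKM, and Pygm, the muscle phosphorylase, at 23.2 and 17.3 FPKM were the other calls. After quantile normalization or with equal sums, each with the block, 4 of these 5 stayed lower and Pygm did not pass. Citric acid cycle genes had a median of -0.20, with 15 of 16 negative. The mutant was lower in all 3 pairs for 15 of them, against 25.1% of all genes. With the block 5 were called lower, against 3.70% of all genes. Idh3a, a subunit of the cycle's isocitrate dehydrogenase, averaged 48.4 and 37.6 FPKM (block adjusted p = 0.0195 in limma), and Ogdh, of the oxoglutarate step, averaged 46.0 and 36.5 FPKM (0.0323). The other 3 were Cs, Sdhb and Sdhd. Under either of those scalings 1 of the 5, Idh3a, passed with the block, and the median of the list was -0.17 and -0.14. The heart muscle and endothelial markers described beside Pgam2 were negative in the same comparison. All 12 tested red cell markers were negative too, with a median of -0.23, but none was called in either fit. Only 3 of them were lower in all 3 pairs. The part of these marker lists in the glycogen and citric acid cycle values was not tested.

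**Figure D4:**
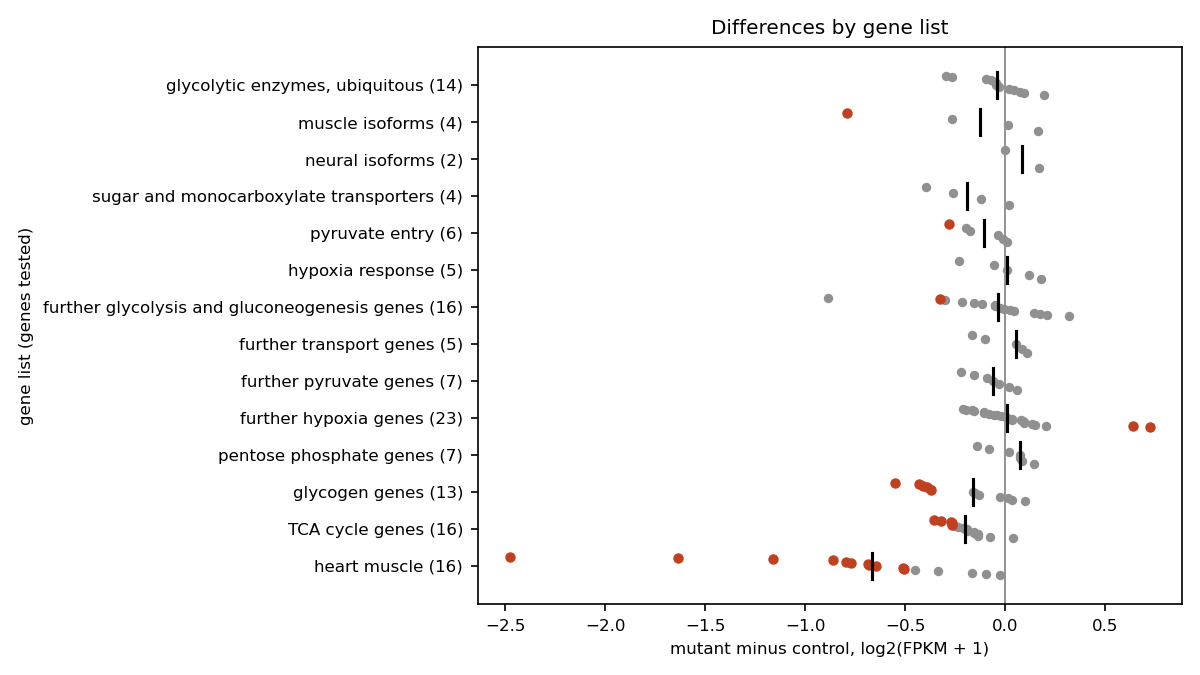
Log2 fold change, mutant over control, of each tested gene in the member groups and the further pathway lists, with the median of each list as a bar and genes called with the replicate block in red. The glycogen and citric acid cycle lists, with medians of -0.16 and -0.20, sit lower than the glycolytic enzymes, with a median of -0.04, and heart muscle markers lie lower still at -0.67.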

How the data were processed

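Per the labels' protocols, RNA came from pooled tissue and NEBNext Ultra was the library kit. The deposited table holds the FPKM values of the authors, 1 column for each library. Cufflinks 2.2.1, STAR 2.5.1b, bcl2fastq 2.18 and mm8 are named in the submitters' processing notes; annotation, strand setting and filters were not given in the sources used here. Ensembl IDs were matched to symbols by a name table, which lacked 129 IDs. Low FPKM values were whole multiples of what 1 read is worth, so reads were recovered (tolerance 0.001). For 20312 of 25759 genes (78.9%) the values were whole at the exon length of GENCODE M21, which is on GRCm38, so coordinates are given on that build; for 5576 genes the nearest multiple was used.

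Differences were tested in limma 3.58.1 (R 4.3.3) on log2(FPKM + 1) with empirical Bayes moderation and a trend, two-sided, over the 12650 genes whose mean FPKM reached 1, and Benjamini-Hochberg adjusted at 0.05 over all of them. Fold changes on this scale understate low genes. Same-numbered libraries deviated together (correlations of 0.73, 0.44 and 0.44), so the numbers were taken as pairs from the data and a fit with the replicate number as a block is given where it changed a call. Control 2 and mutant 3 also correlated at 0.31. Isoform shares were tested by exact permutation (scipy 1.17.1). The script was tested on simulated data. Alternatives were another pseudocount (0.1), no filter, a mean FPKM of at least 5, quantile normalization, scaling to equal sums that leave out red cell and mitochondrial genes, array weights, voom on recovered reads, and leaving out each library or pair. The members, gene lists and tests were chosen with earlier results of these data known. All 35 members are named, and of each further list the 2 genes with the smallest p and the calls with the block, except 1 gene not reported here; genes named for their calls, and Vegfa, were picked with their values in view. With 3 libraries a group, the number of libraries limits the precision.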

Additional observations from a re-analysis of the deposited data

How the results depend on the processing

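Over 20 alternatives, or 19 for genes with a mean FPKM below 5, 18 of the 35 genes never changed sign and 17 did. The threshold was passed by 5 genes in at least 1 alternative. Pgam2 kept a negative value in all 20 (from -1.01 to -0.54) and passed in 8, Pfkl passed in 3, Pdhb in 2, and Slc16a1 and Pkm in 1 each. Quantile normalization and equal sums, each with the block, were added after the data were seen, as was the inclusion of near copies in the isoform families.

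With the replicate block, 180 genes of the whole table were higher and 468 lower, against 3 and 19 without it. Of those called, 27.8% were higher with the block, 38.9% with quantile normalization and the block (254 higher, 399 lower) and 49.6% with equal sums and the block (372 and 378). Voom with the block called 596 and 606 genes, and array weights 193 and 349. No filter gave 5 and 3, a mean FPKM of at least 5 gave 11 lower and equal sums 9 lower. Leave-outs called 0 to 94 genes higher and 0 to 246 lower; without the block they called at most 2 in a direction, and without mutant 2 none, where the unadjusted p was under 0.05 for 176 higher and 311 lower genes.

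Among the members, none was called in the fit of the report without the block. The block called 2 lower, voom with the block 1 higher and 3 lower, quantile normalization with the block 2 higher and 1 lower, equal sums with the block 1 higher and 1 lower, and array weights 1 lower; leave-outs called 0 to 1 lower. Hand2, at -1.78 with an adjusted p of 0.109, passed with the block (-1.78), equal sums (-1.72), array weights (-1.76), voom with the block (-1.77), quantile normalization with the block (-1.73) and equal sums with the block (-1.72); leave-outs gave -2.03 to -1.55. The Aldoc share of aldolase turned to -0.0112 points with quantile normalization, and leave-outs gave -0.00938 to 0.0358 points; those of the Ldhb share gave -0.132 to 1.39 points. Pfkm turned to -0.059 with array weights, and leave-outs gave -0.054 to 0.060. Aldoc turned to 0.037 with equal sums, with or without the block, 0.036 with voom and 0.045 with voom and the block, and leave-outs gave -0.14 to 0.10. The causes were not tested.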
